A study of Homo sapiens and Mus musculus with 47 samples.

Results

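Chrom-seq with the TAF3 reader in HEK293T cells was described from 6 of the 47 samples of the series, 3 libraries with the reader and 3 libraries of its reader-free control, chosen by their sample titles. The comparison addresses which RNAs are recovered more from the surroundings of H3K4me3 than from a nucleus in which the labeling enzyme is not directed to a mark. HEK293T is a line derived from human embryonic kidney cells and is easily transfected. Cells of both groups expressed, for 48 h, an antibody fragment (scFv) fused to the peroxidase APEX2, from a plasmid with a chicken β-actin promoter, together with an array of GCN4 peptide tags that the scFv binds, from a second plasmid. In the TAF3 group the tag array was fused to the plant homeodomain (PHD) finger of mouse TAF3, and in the control group the array carried no reader. Cells then received 500 µM biotin-aniline over 30 min, followed by a pulse of 1 mM H2O2 lasting 1 min, which lets APEX2 attach biotin to nearby RNA before streptavidin capture and sequencing of polyadenylated RNA. Because both plasmids were transfected, each library is from a mixed culture in which the amount of reader per cell was set by transfection and not by the endogenous TAF3 gene.

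H3K4me3 is histone H3 trimethylated at a lysine of its tail. SET1 and MLL methyltransferase complexes deposit it, KDM5 enzymes remove it, and it is found mainly around the start sites of active genes. TAF3 is a subunit of TFIID, the general transcription factor that holds the TATA-binding protein TBP, and its PHD finger binds H3K4me3. APEX2 labels molecules within a short radius of itself, and the captured RNA is compared with that of cells in which the enzyme was not brought to the mark.

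The qPCR primer pairs that the study designed for 12 RNAs of this experiment show which transcripts, and which parts of them, the captured RNA can be checked on. The pairs below belong to the 4 of these RNAs with the largest rise here, and each is written 5′ to 3′ in lower case, the forward primer first, with its position in hg19.
LL22NC03-2H8.5 forward, chr22:22638812-22638832: ataggcggaaaggaaggcaag
LL22NC03-2H8.5 reverse, chr22:22638693-22638716: agaggtaatggttttgattggtcc
RP11-267A15.1 forward, chr5:173953927-173953946: cccaaggcccctcagaattt
RP11-267A15.1 reverse, chr5:173954014-173954033: ccagctcttggaagtctggt
AP001347.6 forward, chr21:15399885-15399904: taagactccaggacacccct
AP001347.6 reverse, chr21:15456388-15456407: gcggagttagatggcagcaa
RP11-222A11.1 forward, chr10:67345249-67345268: agaccaactccgtttcccga
RP11-222A11.1 reverse, chr10:67345468-67345487: ttcaagggcccagccttatt
The LL22NC03-2H8.5 pair lies 140 bases apart from end to end on the minus strand of a lincRNA gene of 3.28 kb, and this gene is not in the exon annotation used here. The RP11-267A15.1 and RP11-222A11.1 pairs each lie within 1 annotated exon. The AP001347.6 pair lies in different exons, 56523 bases apart in the genome. Of the 12 pairs, 9 have both primers in annotated exons and 7 have both in the same exon block, so for most of these RNAs qPCR reads exonic sequence, whereas the counts below were summed over genes whose stated length is the whole gene body.

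H3K4me3 sits at promoters, so the 250 bases before the annotated start are given. That start is the outer boundary of the gene, and which start HEK293T cells use was not tested. These bases are shown for a gene with a large rise, a gene with a large fall and the most raised of the 12 RNAs. They were read from hg19 on the strand of the gene, 5′ to 3′, and capitals mark each CG dinucleotide.
ADARB2, minus strand, chr10:1779671-1779920: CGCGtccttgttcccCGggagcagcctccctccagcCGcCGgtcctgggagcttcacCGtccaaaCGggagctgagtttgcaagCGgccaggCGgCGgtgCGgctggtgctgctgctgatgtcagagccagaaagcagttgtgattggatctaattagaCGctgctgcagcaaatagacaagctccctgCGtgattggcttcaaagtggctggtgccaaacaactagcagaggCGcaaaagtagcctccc
HSPA8, minus strand, chr11:122933939-122934188: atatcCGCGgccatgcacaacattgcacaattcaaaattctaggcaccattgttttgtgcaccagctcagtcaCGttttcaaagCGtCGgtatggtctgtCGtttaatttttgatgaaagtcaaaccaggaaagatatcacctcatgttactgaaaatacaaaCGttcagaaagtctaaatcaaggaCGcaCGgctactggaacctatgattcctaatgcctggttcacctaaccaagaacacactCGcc
LL22NC03-2H8.5, minus strand, chr22:22641587-22641836: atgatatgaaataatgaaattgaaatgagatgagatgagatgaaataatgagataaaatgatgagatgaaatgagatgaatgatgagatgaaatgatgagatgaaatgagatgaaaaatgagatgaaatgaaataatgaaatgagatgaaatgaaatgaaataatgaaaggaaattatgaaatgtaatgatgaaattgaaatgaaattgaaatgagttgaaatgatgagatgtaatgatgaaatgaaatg
The ADARB2 window holds 14 CG dinucleotides at 59.6% GC, the HSPA8 window 10 at 42.8% GC, and the LL22NC03-2H8.5 window 0 at 24.8% GC. The letters of the last are mostly A, G and T, and its sequence repeats a short unit.

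The 3 TAF3 libraries held 3941942 to 6837312 counts and the 3 control libraries 4829690 to 6045007, over 57820 genes. The table with these 6 libraries has no gene identifiers, and its rows were given those of the table stacked above it in the same file, which has as many rows. In that order the log2 CPM of the 6 libraries correlated with HEK293T RNA-seq at a Spearman rho of 0.881 to 0.912 over genes, and at 0.146 to 0.169 when the rows were moved by 1. All 9 markers of HEK293T cells were detected, at a summed 1390 to 1439 CPM (counts scaled to library totals with TMM factors) with TAF3 and 1069 to 1125 in the control, with NEFM (log2 fold change 1.83) and IGF2BP3 (0.78) higher, IGF2BP1 (-0.81) lower and the other 6, among them VIM and CDH2, not called. Of 10 genes of colon epithelium, CEACAM5, LCN2 and KRT23 had no count in the 6 libraries, and all 10 together reached 8.43 to 10.8 CPM with TAF3 and 6.33 to 12.02 in the control, with VIL1 (1.35) higher. Of 14 genes of other tissues 5 could be tested and 0 were called. The groups differed in composition. Genes of the mitochondrial chromosome held 38.9 to 43.4% of the counts with TAF3 and 18.5 to 19.4% in the control, against 3.67 to 5.17% in the other HEK293T Chrom-seq libraries, those of CBX7 and dPC.

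The reader is a part of mouse TAF3, and the counts are on human genes. TAF3 (hg19 chr10:7860467-8058590) had 230, 177 and 202 CPM in the reader libraries and 92.8, 91.5 and 87.0 CPM in the control libraries. The groups did not overlap, and the log2 fold change was 1.16 (SE 0.0847, edgeR adjusted p = 1.85e-19). How far reads of the mouse PHD sequence entered this value was not tested, so it is a weak check of the labels. Under scaling by library size alone TAF3 was not called.

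Of 16752 genes tested, 3710 (22.1% of those tested) were higher with TAF3 and 3092 (18.5%) were lower. A gene was called where its edgeR adjusted p fell under 0.05 and its log2 fold change reached 0.75 in either direction. In 3505 of the raised genes and in 3020 of the lowered genes all 3 libraries of a group lay beyond all 3 of the other, as was so for 66.2% of all genes tested. Each library pools many cells, so a change in some of the cells and a smaller change in all of them cannot be told apart. The rises were the larger of the changes. Their median log2 fold change was 1.48 and 920 of them reached 2, whereas the median of the falls was -1.17 and 283 reached a size of 2. The split depends on the scaling. With library size alone in place of TMM the median change over all genes moved from 0.01 to -0.46, with 2124 genes higher and 5999 lower, so directions below are relative to the TMM scaling.

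**Figure D1:**
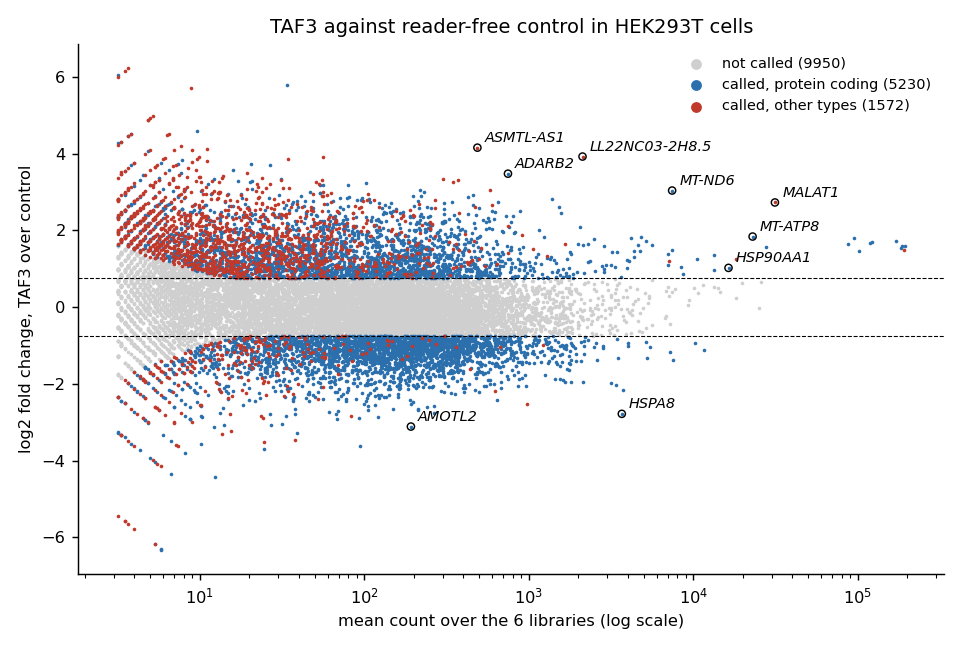
Log2 fold change of TAF3 over control (vertical axis) against the mean count per library (horizontal log axis) for the 16752 genes tested in HEK293T cells, with 5230 called protein coding genes in blue, 1572 called genes of other types in red and 9950 genes not called in grey. Genes of other types lie mostly above 0, with 1316 of them higher and 256 lower.

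Very long protein coding genes, several of them known from neurons, were among the largest rises. ADARB2, a brain member of the RNA-editing deaminase family that spans 552 kb (chr10:1228073-1779670) and whose start region is printed above, had 325, 301 and 298 CPM with TAF3 and 28.1, 27.1 and 27.8 CPM in the control. This is an 11.13-fold rise, with little spread within either group (log2 fold change 3.48, SE 0.0907, edgeR adjusted p = 3.57e-42). DLG2, a scaffold protein of the synapse, spans 2173 kb and had 89.9, 81.3 and 89.2 CPM with TAF3 and 9.72, 9.98 and 11.7 CPM in the control, an 8.24-fold rise. NLGN1, a synaptic adhesion molecule of 890 kb, had 75.9, 76.2 and 77.2 CPM with TAF3 and 9.37, 11.8 and 9.46 CPM in the control. LRRTM4, another synaptic adhesion molecule, of 846 kb, and KCNQ5, a voltage-gated potassium channel of 577 kb, had log2 fold changes of 2.88 and 2.86. In each of these genes the lowest TAF3 library lay several-fold above the highest control library. BTBD9 (2.91, 472 kb), RPH3AL (3.22, 174 kb), C12orf79 (2.998, 158 kb) and RP11-758M4.1 (2.82, 224 kb) completed the nuclear protein coding genes of this group. Annotated exons made up 1.92% of the span of ADARB2, 1.30% of that of DLG2 and 0.64% of that of LRRTM4. All of these long genes but RP11-758M4.1 and RPH3AL share part of their span with a smaller gene on the same strand, whose reads cannot be fully set apart.

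**Figure D2:**
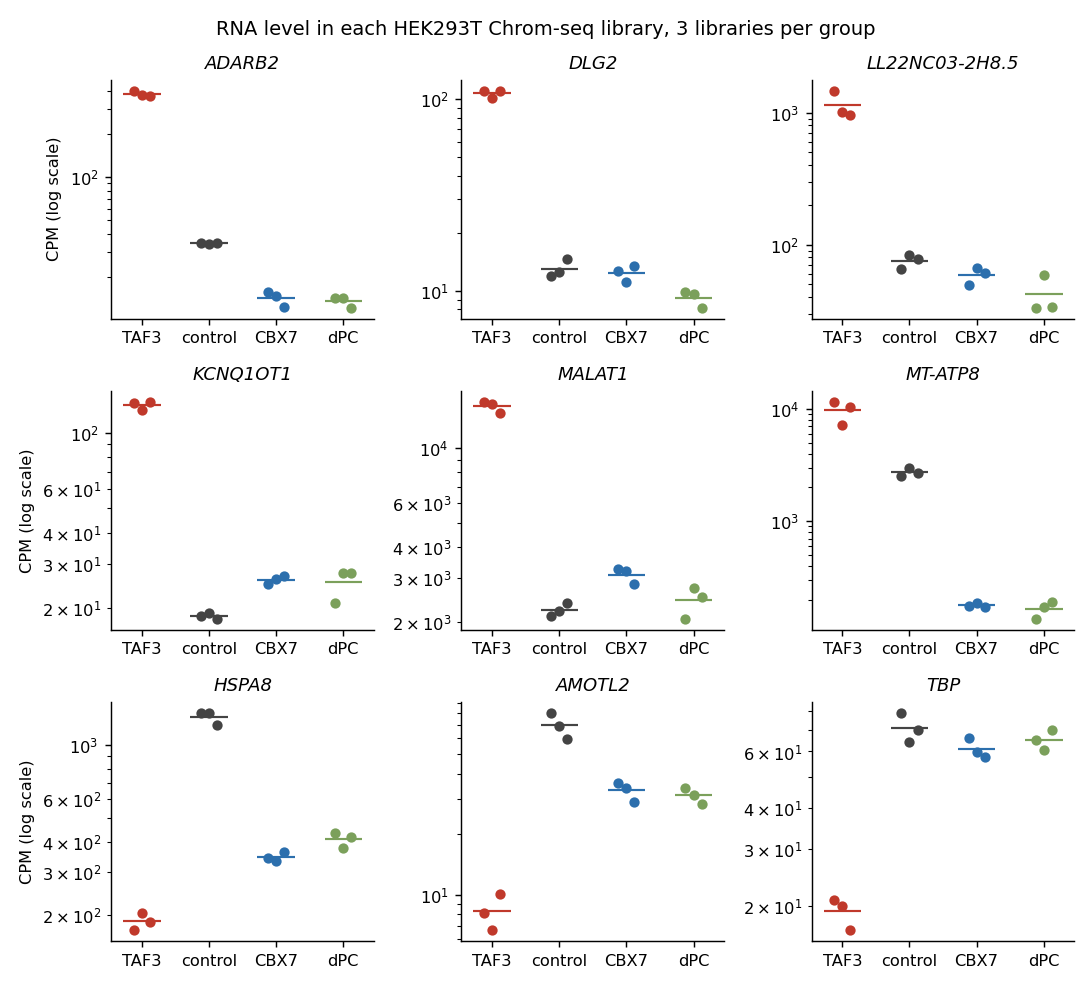
CPM on a scale common to 12 HEK293T Chrom-seq libraries (log axis) of 9 genes in the TAF3, control, CBX7 and dPC libraries, 1 panel per gene, with a point for each library and a line for the mean of 3. ADARB2, DLG2, LL22NC03-2H8.5, KCNQ1OT1 and MALAT1 are highest with TAF3, AMOTL2 and TBP are lowest with TAF3, HSPA8 is highest in the control, and MT-ATP8 is high in both the TAF3 and the control libraries.

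The span of a gene was not used in the fit, and the share of genes called followed it closely. Among protein coding genes under 5 kb, outside the mitochondrial chromosome, 11.4% were higher and 25.1% lower, and between 10 and 20 kb 8.04% were higher and 31.8% lower. The shares were nearly equal at 50 to 100 kb, where 15.11% were higher and 16.6% lower. In longer genes rises outnumbered falls. From 100 to 200 kb 26.1% were higher and 6.33% lower, and from 200 to 500 kb 583 of 989 genes were higher and 14 lower. Of the 265 protein coding genes of 500 kb or more, 237 (89.4%) were higher and 2 were lower, with a median log2 fold change of 1.91. Genes of other types followed the same course at a higher level, with 27.2% of those under 5 kb and 28 of the 32 of 500 kb or more higher. With a mean count of 100 or more, 410 of 692 protein coding genes of 200 kb or more were higher and 716 of 2032 under 20 kb were lower, so the relation was also present where counts were high.

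**Figure D3:**
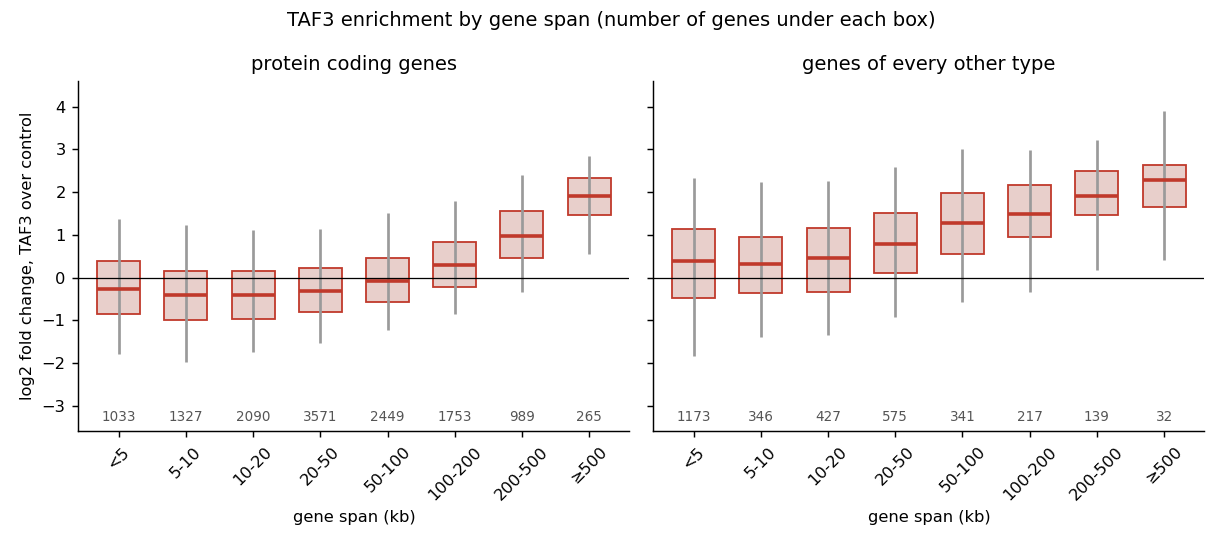
Log2 fold change of TAF3 over control by the span of the gene for protein coding genes and for other types, with boxes for the quartiles, a line for the median and grey for the 5th to 95th percentile. The protein coding median lies at -0.41 between 5 and 20 kb and reaches 1.91 at 500 kb or more.

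In terms of whole libraries, genes of 200 kb or more held 9.23 to 9.67% of the counts outside the mitochondrial chromosome with TAF3 and 4.74 to 4.86% in the control. Genes of 500 kb or more held 2.32 to 2.50% with TAF3 and 0.713 to 0.746% in the control. The TAF3 libraries stood apart here, since the control libraries were close to the CBX7 (4.86 to 5.06%), dPC (4.40 to 4.86%) and RNA-seq control (4.95 to 5.24%) libraries in their share of genes of 200 kb or more. The 379 olfactory receptor genes, which are nearly silent in this line, together had 11 to 15 counts per library with TAF3 and 13 to 17 in the control, and the 2 of them that could be tested were not called.

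The exon makeup of the genes moved with the span. Protein coding genes that were higher had a median span of 116 kb, of which 5.74% was annotated exon, and those that were lower had a median span of 21.2 kb, of which 24.52% was exon. Where exons made up under 2% of the span, 77.2% of 496 genes were higher and 1.21% lower. Of 269 protein coding genes without an intron, 7.43% were higher and 32.7% lower. The deposited counts do not separate exonic from intronic reads, so exonic and intronic recovery of a gene cannot be told apart here. The study reports that reads of its TAF3 Chrom-seq in HEK293T cells aligned mostly to exons.

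The level of the genes in HEK293T RNA-seq, from separate libraries and taken per kb of exon, also moved with the fold change. Protein coding genes that were higher had a median RNA-seq level of 1.74 CPM per kb of exon, those not called 5.43 and those lower 8.08. In the lowest quintile by this level 35.9% of the genes were higher and 9.79% lower, and in the highest quintile 6.72% were higher and 31.9% lower. Span and level were each related to the outcome within wide classes of the other. Inside such a class the other can still vary, so their parts are not fully separated. Among genes of 100 kb or more 63.5% were higher in the lowest quintile and 15.9% in the highest, and among genes under 20 kb 18.03% were higher in the lowest quintile and 6.33% in the highest.

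The CpG content of the start region moved little with the fold change within a span class. A window was called CpG-rich at a GC content of at least 55% and a ratio of observed to expected CpG of at least 0.6, which held for 53.3% of the windows of all tested genes. It held for 53.2% of the protein coding genes that were higher, 59.2% of those lower and 58.2% of those not called. Among protein coding genes of 200 kb or more the median log2 fold change was 1.16 with a CpG-rich window and 1.24 without. Among those under 20 kb it was -0.44 with and -0.28 without. The raised genes of other types had a CpG-rich window in 32.2%, the lowered ones in 36.3% and those not called in 38.3%.

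Noncoding genes, meaning here every type other than protein coding, rose far more often than they fell. Of 3262 tested, 1316 (40.3%) were higher and 256 (7.85%) lower, against 17.7% and 21.0% of the 13490 protein coding genes. Of 959 lincRNA genes 450 (46.9%) were higher and 56 lower, of 213 processed transcripts 93 (43.7%) were higher and 17 lower, and of 1251 antisense genes 498 (39.8%) were higher and 64 lower. Pseudogenes had 229 of 724 higher and 115 lower, and since they share sequence with their parent genes their counts are uncertain. LincRNAs held 3.81 to 4.08% of the counts outside the mitochondrial chromosome with TAF3 and 1.38 to 1.47% in the control. Many of these genes had few counts. With a mean count of 100 or more 130 of 242 noncoding genes were higher and 20 lower, among them 38 of 54 lincRNA genes and 37 of 60 antisense genes higher.

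Among called noncoding genes whose mean count reached 100 the largest rise was that of ASMTL-AS1, with 230, 238 and 144 CPM with TAF3 and 12.4, 7.03 and 15.6 CPM in the control (log2 fold change 4.15, SE 0.140, edgeR adjusted p = 2.46e-36). It lies opposite ASMTL, and without stated strand its reads and those of ASMTL cannot be told apart. LL22NC03-2H8.5 (chr22:22638312-22641586), the first of the RNAs whose primers are printed above, had 1187, 811 and 779 CPM with TAF3 and 53.2, 66.5 and 62.5 CPM in the control. Its rise of 15.2-fold (log2 fold change 3.92, SE 0.104, edgeR adjusted p = 6.55e-42) is of a short gene, unlike most of the protein coding genes named, and no annotated gene overlaps it. RP11-123O10.4 (3.34), RP11-206L10.9 (3.32) and a gene of chromosome X with the identifier ENSG00000235244.3 (3.25), all lincRNA genes, came next, followed by RP11-267A15.1 (3.05), RP11-711K1.8 (2.95) and AL592494.5 (2.80). In each of these the control libraries were at 29.0 CPM or less, and the TAF3 libraries at 38.5 CPM or more.

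All 12 RNAs for which the study has TAF3 primers were higher, with a median log2 fold change of 2.12. They were chosen by the study on these libraries, so their direction here is not independent evidence. The study separately reports significant enrichment by H3K4me3 immunoprecipitation and qPCR, in HEK293T and H9 cells, for RNAs it chose from this experiment. RP11-267A15.1 had 221, 231 and 232 CPM with TAF3 and 25.4, 29.0 and 28.1 CPM in the control. AP001347.6 had 183, 173 and 176 CPM with TAF3 and 25.8, 30.5 and 30.1 CPM in the control. RP11-222A11.1 had 137, 141 and 133 CPM with TAF3 and 24.4, 22.218 and 29.0 CPM in the control. In all 3 of these lincRNA or antisense genes the TAF3 libraries lay close to each other and far above every control library. The log2 fold changes of the others were 2.17 for GMDS-AS1, 2.13 for RP11-453F18__B.1, 2.12 for LINC00669, 2.07 for PARGP1, 2.04 for STX18-AS1, 1.68 for NUTM2A-AS1, 1.64 for RP11-531A24.5 and 1.41 for JPX, the smallest of the 12. Of 6 RNAs with primers that the study lists as not found by this experiment, RP11-357C3.3 was higher (0.92, edgeR adjusted p = 4.44e-11) and the other 5 were not called. Under library size alone RP11-357C3.3 was not called either. For RNAs that Chrom-seq did not find, the study also reports H3K4me3 immunoprecipitation and qPCR. It gives significant enrichment for 5 of 6 in H9 cells and for most of them in HEK293T cells. An RNA that was not called here may therefore still be associated with the mark.

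RNAs that the study names for repressive marks were also measured. MALAT1, an abundant lincRNA of nuclear speckles, had 12469, 12044 and 11180 CPM with TAF3 and 1718, 1765 and 1912 CPM in the control. The rise was 6.62-fold (log2 fold change 2.73, SE 0.0810, edgeR adjusted p = 2.86e-39), and the groups lay far apart. NEAT1, the scaffold of paraspeckles, had 348, 313 and 322 CPM with TAF3 and 119, 118 and 104 CPM in the control. The list of 13 RNAs includes BCYRN1, which the study used as its negative control for H3K27me3 (-0.11, not called). Of these 13, 6 were higher and 1 was lower, with a median log2 fold change of 0.57. Over all noncoding genes 40.3% were higher, a share near theirs, with a median of 0.69. LINC00662 was higher (1.31), LINC00641 was lower (-1.26) and SETD5-AS1 was not called (0.11, edgeR adjusted p = 0.345).

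LncRNAs listed here as nuclear-retained and as cytoplasmic were counted separately. Where each of them lies in HEK293T cells was not measured, and some may be found in both places. Of 8 nuclear-retained lncRNAs tested, 6 were higher and 0 lower, with a median log2 fold change of 1.52, and under library size alone 6 were higher and 2 lower. The 6 were MALAT1, NEAT1, KCNQ1OT1, PVT1 (1.92), FTX (1.51) and JPX (1.41). FTX and JPX are neighbours in the X-inactivation centre and overlap on opposite strands. JPX is also among the primer RNAs, which the study chose on these libraries. TUG1 (-0.34) and OIP5-AS1 (-0.68) were not called. KCNQ1OT1, which silences its imprinted neighbours in cis, had 106, 98.5 and 107 CPM with TAF3 and 15.2, 15.3 and 14.5 CPM in the control, and it lies opposite KCNQ1, whose reads could not be set apart without strand. Of 10 cytoplasmic lncRNAs 1 was higher and 1 lower, with a median of -0.03. Host genes of small nucleolar RNAs, spliced RNAs whose introns hold the guide RNAs, had 0 of 13 higher and 2 lower. Over all noncoding genes tested 40.3% were higher and 7.85% lower, and the lists are small. Against the CBX7 libraries the lists differed less. There 5 of 8 nuclear-retained lncRNAs were higher and 2 lower (median 1.69). Of 10 cytoplasmic lncRNAs 6 were higher and 1 lower (median 1.30), and of 13 host genes 7 were higher and 1 lower (median 0.90). Over all genes of that comparison 24.4% were higher and 24.9% lower.

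The 8 largest falls by the rule for naming, which asks for a mean count of 100 or more, were all in protein coding genes. AMOTL2, a junctional scaffold of the Hippo pathway, had 6.56, 5.33 and 8.13 CPM with TAF3 and 65.4, 55.5 and 47.8 CPM in the control (log2 fold change -3.11, SE 0.155, edgeR adjusted p = 1.45e-27). HSPA8, the constitutive HSP70 chaperone (chr11:122928197-122933938), had 140, 164 and 151 CPM with TAF3 and 1104, 1077 and 968 CPM in the control. This is 6.87-fold lower, with no overlap (log2 fold change -2.78, SE 0.0824, edgeR adjusted p = 2.86e-39). The control was also high beside the other readers. On the scale common to the HEK293T Chrom-seq libraries HSPA8 had 173.7 to 204.8 CPM with TAF3 and 1211 to 1355 in the control. It had 332.5 to 363 CPM with CBX7 and 378.5 to 436.6 with dPC. AMOTL2 had 6.659 to 10.08 CPM with TAF3 and 59.75 to 80.31 in the control on that scale. With CBX7 it had 28.99 to 36.13 CPM and with dPC 28.36 to 34.07. The small nucleolar RNA genes SNORD14C, SNORD14D and SNORD14E lie inside HSPA8 on the same strand, and their part in its counts was not tested. ALAS1, the first enzyme of heme synthesis, had 12.2, 11.0 and 10.6 CPM with TAF3 and 76.3, 76.9 and 74.1 CPM in the control. The zinc finger gene ZNF184 (-2.86), the selenium carrier SEPP1 (-2.68), the AMP-kinase subunit PRKAB1 (-2.67), the mitochondrial ubiquitin ligase MUL1 (-2.67) and the cell cycle factor E2F8 (-2.66) completed this group. The longest of the 8 is SEPP1, with a span of 87.5 kb. The HSPA8 window above, taken before the outer boundary of the gene, is below the GC content set for a CpG-rich start.

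Mitochondrially encoded RNA rose as a block. All 13 mitochondrial mRNAs were higher, with a median log2 fold change of 1.64, and of 25 genes of the mitochondrial chromosome tested 24 were higher. MT-ND6, the mRNA of the light strand, had 3850, 2406 and 2908 CPM with TAF3 and 343, 274 and 501 CPM in the control. MT-ATP8 had 9383, 5752 and 8350 CPM with TAF3 and 2046, 2383 and 2140 CPM in the control, with no overlap between the groups. These RNAs are made outside the nucleus and carry no histones. With the mitochondrial genes left out, an alternative chosen after seeing the data, 3691 genes were higher and 3085 lower.

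The machinery of the mark itself was measured next. Of 15 subunits of H3K4 methyltransferase complexes 0 were higher and 4 lower, among them WDR82 (-1.20), the adaptor of SET1 complexes, and HCFC1 (-1.10), and the enzymes KMT2A (-0.08), KMT2D (0.17) and SETD1A (-0.13) were not called. Of 5 H3K4 demethylases KDM5A was higher (0.78) and the other 4 lower, with KDM5B at -1.33 and KDM1B at -0.94. Of 14 genes with an H3K4me3-reading domain 2 were higher, TAF3 itself and PHF2 (0.92), and 6 were lower, among them PHF23 (-1.63) and ING3 (-1.32). Of 16 TFIID subunits, TAF3 and TAF6 (0.96) were higher and TBP, TAF2 (-1.13) and TAF9B (-0.79) were lower. TBP, the subunit that binds the TATA box, had 16.9, 16.001 and 13.6 CPM with TAF3 and 64.3, 51.3 and 55.8 CPM in the control (log2 fold change -1.88). These counts stand beside 22.1% higher and 18.5% lower over all genes, and 17.75% higher and 21.02% lower over protein coding genes. The lists are small. Under library size alone 0 members of these lists were higher and 4, 7, 8 and 7 members were lower among the demethylases, methyltransferase subunits, readers and TFIID subunits.

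**Figure D4:**
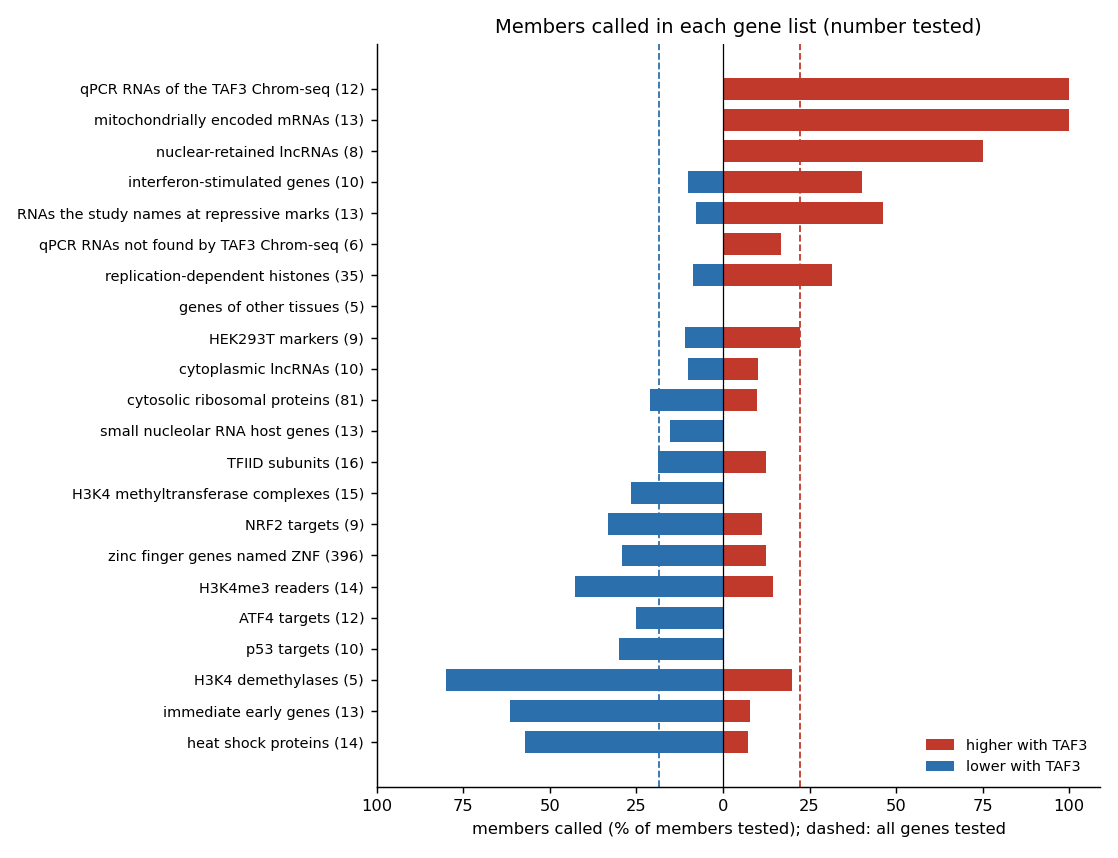
Percent of the tested members of each list that were higher (red, to the right) or lower (blue, to the left) with TAF3 in HEK293T cells, with the number tested in brackets and dashed lines for all genes tested (22.1% and 18.5%). All members of the primer list and of the mitochondrial mRNAs were higher, and heat shock proteins, immediate early genes and H3K4 demethylases have the largest shares of lower members.

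Stress and signal response lists are read beside 17.7% higher and 21.0% lower over all protein coding genes. Of 14 heat shock proteins 8 were lower, with HSPA8, HSPA1B (-2.45), HSPE1 (-2.12) and HSPA1A (-1.85) among them, and 1 was higher, HSP90AA1 (1.02). The median of the list was -1.11 beside 0.01 over all genes and -0.10 over protein coding genes. The summed level of the list went the other way, at 8673 to 9739 CPM with TAF3 and 7384 to 7736 CPM in the control. Of 13 immediate early genes 8 were lower, EGR2 (-2.18) and the phosphatase DUSP1 (-1.54) with the largest falls, and ARC (1.13) was higher. Of 10 p53 targets 3 were lower, CDKN1A (-2.08) and BTG2 (-1.36) among them, and 0 were higher. Of 12 ATF4 targets 3 were lower, TRIB3 (-1.92) and SESN2 (-1.49) among them, and 0 were higher. Of 9 NRF2 targets 3 were lower and 1 was higher. Under library size alone 0 members of these lists were higher. Of 10 interferon-stimulated genes 4 were higher, OASL (2.32) and IFIT1 (1.73) among them, and 1 was lower. Under library size alone 3 were higher and 2 lower. The summed level of this list overlapped between the groups, at 60.97 to 79.84 CPM with TAF3 and 65.39 to 67.64 CPM in the control.

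Large families had members called in both directions, and their counts are read beside 17.7% higher and 21.0% lower over all protein coding genes. Of 81 cytosolic ribosomal protein genes 8 were higher and 17 lower, with a median of -0.20, RPL22 (1.63) and RPL23 (1.25) among the rises and RPL39L (-1.54) and RPL41 (-1.37) among the falls, and under library size alone 2 were higher and 36 lower. Summed over the family, however, the level was 51090 to 54790 CPM with TAF3 and 44500 to 49480 CPM in the control. Against the CBX7 libraries 50 of the 81 were higher and 6 lower, with a median of 1.06. Many processed copies of these genes exist, and reads can be split between them. Of 396 zinc finger genes named ZNF 49 were higher, with ZNF709 at 3.295, and 116 were lower, with ZNF853 at -3.62. Of 35 replication-dependent histone genes 11 were higher, HIST1H1E (2.68) among them, and 3 were lower, but under library size alone 6 were higher and 8 lower, so the direction of this family rests on the scaling.

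The same reader was used in HCT116, a human colon carcinoma line, with its own 3 reader and 3 control libraries, and none of the libraries is shared with HEK293T. There 625 of 18731 genes (3.34%) were higher and 615 (3.28%) lower. Over the 15228 genes tested in both lines the SD of the log2 fold change was 1.05 in HEK293T and 0.51 in HCT116, and Pearson's r of the changes over genes was 0.00141, a description over genes that are not independent. Of 3143 such genes higher in HEK293T 144 (4.58%) were higher in HCT116 and 107 (3.40%) were lower, and the 144 made up 39.7% of the 363 genes higher in HCT116. Over all shared genes 2.38% were higher and 2.69% lower in HCT116, and 20.6% were higher in HEK293T. Of 2930 genes lower in HEK293T 50 (1.71%) were lower in HCT116 and 58 (1.98%) were higher. The genes higher in HEK293T had a median log2 fold change of -0.05 in HCT116, and of the 11 primer RNAs tested there 0 were called. Mitochondrial genes held 11.7 to 13.12% of the counts with TAF3 in HCT116 and 13.7 to 14.1% in its control, a smaller difference than in HEK293T and in the opposite direction.

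**Figure D5:**
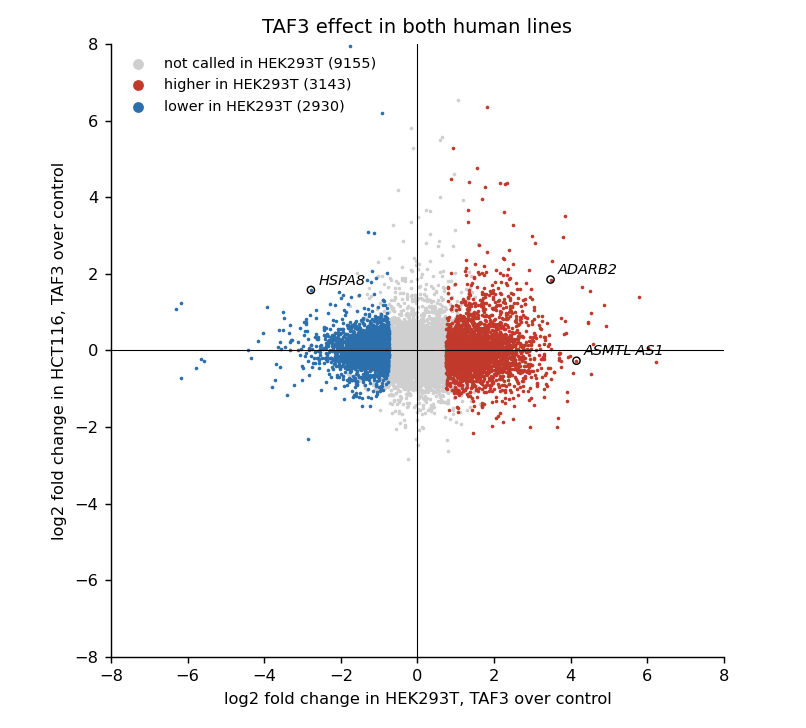
Log2 fold change of TAF3 over control in HCT116 (vertical axis) against that in HEK293T (horizontal axis) for 15228 genes tested in both lines, colored by the call in HEK293T. The spread along the HEK293T axis (SD 1.05) is larger than along the HCT116 axis (SD 0.51), and HSPA8 is low in HEK293T and high in HCT116.

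The difference of the effects was tested as an interaction over the 12 libraries. Of 18984 genes, 3346 (17.6%) were higher and 3317 (17.5%) lower in HEK293T minus HCT116. The library labels carry NLS in HEK293T and APEX2 in HCT116, and the HCT116 libraries were deeper, at 14213105 to 17445889 counts. The line and whatever else differed between these sets of libraries cannot be told apart. HSPA8 gave the clearest contrast. Its log2 fold change was -2.78 in HEK293T and 1.58 in HCT116, a difference of -4.35 (SE 0.0993, edgeR adjusted p = 5.66e-51). ASMTL-AS1 (difference 4.43) and LL22NC03-2H8.5 (4.09) were higher in HEK293T and were not called in HCT116, with -0.27 and -0.17 there. MALAT1 changed by 2.73 in HEK293T and had -0.29 in HCT116, a difference of 3.02. LPHN3 (4.73), NNT (-4.38) and CELF2 (-4.16) also met the rule for naming, but all 3 were at about 1 CPM or less in HCT116, so their differences rest on few counts in that line. The relation with span was weaker in HCT116, where 13.06% of the genes of 500 kb or more were higher with a median log2 fold change of 0.09, and in the interaction 51.7% of such genes were higher in HEK293T.

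The TAF3 libraries were also set against those of CBX7, a reader of the repressive mark H3K27me3, in the same line. Of 18231 genes, 4454 (24.4%) were higher with TAF3 and 4535 (24.9%) lower. Genes of 500 kb or more were higher with TAF3 in 89.1%, with a median of 2.23. On a scale common to the 12 HEK293T libraries ADARB2 had a mean of 382 CPM with TAF3, 34.4 in its control, 14.2 with CBX7 and 13.5 with dPC, a second H3K27me3 reader. MALAT1 had 14770, 2236, 3100 and 2441 CPM in the same order. NEAT1 went the other way, at 407 CPM with TAF3, 141 in its control, 848 with CBX7 and 605 with dPC.

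The largest differences from CBX7 were in part also present in the TAF3 control. The pseudogene RPL5P34 had 73.4 CPM with TAF3 and 18.1 in its control but 0.102 with CBX7. RP5-857K21.11, a pseudogene beside MTATP6P1 that shares sequence with the mitochondrial genome, had 2550 and 1111 CPM with TAF3 and its control and 5.62 with CBX7, and MTRNR2L12, which also resembles mitochondrial RNA, had a log2 fold change of 8.396. In the other direction SENP3, a SUMO protease, had 1.43 CPM with TAF3, 11.9 in its control, 76.5 with CBX7 and 91.9 with dPC, and CTD-2527I21.14 (-5.95) and RP11-122C9.1 (-5.54) were nearly absent from both TAF3 groups. In RPL5P34, RP5-857K21.11 and SENP3 the mean of the TAF3 control stood between those of TAF3 and CBX7. The TAF3 libraries and their control share a table apart from the CBX7 and dPC libraries, and for this comparison the reader and whatever else differed between the sets of libraries cannot be told apart.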

How the data were processed

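RNA captured by Chrom-seq was sequenced, and the deposited values are raw read counts per gene, which the authors made with fastp 0.23.1, HISAT2 2.1.0 on hg19 and featureCounts 2.0.1 over GENCODE v19 genes. The submitters' processing notes also name FastQC 0.11.8 and DESeq2 1.34.0. Totals per library are given above. The stated length equals end minus start plus 1 for all 57820 genes, so reads in introns may have been counted. The study assigned reads to features with a forward-stranded setting in QualiMap, but whether featureCounts used strand is not given in the sources used here, so overlapping and antisense genes are uncertain. Columns of 6 libraries that match no listed sample were not used.

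Counts were tested in R 4.3.3 by the edgeR quasi-likelihood test (edgeR 4.0.16), with TMM and Benjamini-Hochberg adjustment over all genes tested, in genes whose summed count exceeded 3 per library (18 over 6 libraries). Each comparison used its own 2 groups, and the difference between lines was an interaction over 12 libraries. CPM are TMM-scaled, and RNA-seq levels per kb used exons of a later GENCODE release lifted to hg19. The study calls its replicates independent, and the labels do not say whether they were separate cultures. The p-values measure the spread between these libraries. The study trimmed random bases from its reads and describes no collapsing of PCR copies, so reads are not independent molecules. The procedure was tested on simulated data in which a small set of genes changed, equally in both directions. Such data do not hold the shift in composition seen here, so that test cannot judge the scaling.

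Named genes were, among called genes whose mean count was 100 or more and whose groups did not overlap, the 10 protein coding and 8 other genes with the largest rise and the 8 with the largest fall; TAF3; the members of the 3 lists of RNAs that the study names or has primers for; and in each other list the 2 largest called rises and 2 largest falls, with the 3 largest differences each way in the other comparisons. Further members of lists named in the text were chosen after their values were seen. Results of some single genes are not reported here. Members and lists were chosen with earlier results of these data known. Alternatives were DESeq2 1.42.0, its size factors, library size alone, no filter, filterByExpr, a mean of at least 100 counts, control counts thinned to the TAF3 depth, the replicate number as a block and leaving out each library. The alternatives without mitochondrial genes, and those for gene spans, were added after seeing the data. The plots were made with matplotlib 3.10.9.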

Additional observations from a re-analysis of the deposited data

Results flagged for a closer look

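The effect of TAF3 differed between the HEK293T and HCT116 libraries by the interaction test for 3346 genes upward and 3317 genes downward. The line and whatever else differed between these sets of libraries cannot be told apart. Among named genes the log2 difference, HEK293T minus HCT116, was 4.43 for ASMTL-AS1, 4.09 for LL22NC03-2H8.5 and -4.35 for HSPA8, each with 3 libraries in every group. It was 4.73 for LPHN3, -4.38 for NNT and -4.16 for CELF2, which had few or no counts in HCT116. The share of mitochondrial counts was higher with the reader in HEK293T and slightly lower with it in HCT116, and its part in these differences was not tested.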

How the results depend on the processing

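Scaling by library size alone gave 2124 genes higher and 5999 lower against the control, 1844 and 5821 in HEK293T minus HCT116, and 1865 and 9505 against CBX7. A mean of at least 100 counts left 1413 higher and 1271 lower, with fewer genes tested. Noncoding genes made up 35.5% of the genes higher, and 33.3% with DESeq2, 40.3% with library size alone, 38.1% with no filter, 28.9% with filterByExpr and 9.98% with a mean of at least 100 counts. Among genes lower they made up 8.28%, and 6.21% with DESeq2, 6.17% with filterByExpr and 1.10% with a mean of at least 100 counts. Of genes of 200 kb or more, 67.8% were higher, 48.7% with library size alone and 57.0% with no filter. Of genes under 20 kb, 24.6% were lower, 22.1% with DESeq2, 42.5% with library size alone, 12.04% with no filter, 28.5% with filterByExpr and 27.8% with a mean of at least 100 counts. More members were higher than lower in 9 lists, and in 5 with library size alone.

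Leaving out each library gave 3458 to 3597 genes higher and 2957 to 3078 lower against the control, noncoding shares of 33.6 to 34.8% and 6.95 to 8.30%, and 518 to 642 genes higher and 533 to 586 lower in HCT116. The direction reversed with library size alone for MCM3AP-AS1 (-0.10), SETD5-AS1 (-0.37), RP11-500G22.2 (-0.45) and TINCR (-0.11), none of them called. RP11-500G22.2 was also at -0.0201 with no filter and between -0.14 and 0.13 without single libraries. Without single libraries BCYRN1 was between -0.50 and 0.11. The cause of these moves was not tested.

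No pairing by replicate number was seen, since deviations of same-numbered libraries correlated at -0.00433, -0.0198 and -0.0321. Such values cannot show whether same-numbered libraries were handled together. With the replicate number as a block 3633 genes were higher and 3043 lower against the control, 3293 and 3301 in HEK293T minus HCT116, and 4394 and 4483 against CBX7. Depth limits what can be said of genes below a few counts per library, which were not tested.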
